A study of Mus musculus with 16 samples.

Results

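Break ends were compared between HMGB1-silenced mouse mesothelioma cells given 3 Gy of gamma rays and the same cells left unirradiated, by taking the 2 libraries of each dose and setting them against each other within their replicate number. These 4 libraries are part of a set of 16 that covers 2 cell lines and 4 doses. All 16 come from AB22, a murine malignant mesothelioma line grown in 5% oxygen, and every cell was infected with a pTRIPZ lentivirus, selected with puromycin, kept on doxycycline for 7 to 10 days to switch on its short hairpin RNA, and synchronised in G1. In shHMGB1 cells the hairpin targets Hmgb1, and in shCTRL cells it is a control hairpin. A caesium source delivered 0, 3, 5 or 10 Gy. The silenced cells are puromycin-selected transduced cells and not a knockout, so some HMGB1 protein may remain. How long after irradiation the cells were fixed is not given in the sources used here. The labels call the replicates biological.

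BLISS marks double-strand break ends in fixed nuclei: the ends are blunted, an adapter with a molecular barcode is ligated to them in place, and the tagged DNA is amplified by in vitro transcription and sequenced. Each counted end is 1 barcoded molecule at 1 genomic position. HMGB1 is an abundant chromatin protein that bends DNA and helps nucleosomes assemble, and cells with little of it are known to hold fewer histones. Gamma rays break DNA directly and through radicals, without a preferred sequence, and G1 cells rejoin most such breaks by end joining. Unirradiated cells also carry breaks, which gather at transcribed genes, at sites where topoisomerases act, and at repeats.

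The 2 unirradiated libraries held 691644 and 881445 ends on the main chromosomes, and the 2 libraries at 3 Gy held 884530 and 750930 (replicates 1 and 2 in each case). Replicate 1 thus had more ends after irradiation and replicate 2 had fewer, and the mean log2 ratio was 0.06 (exact two-sided permutation test within pairs, p = 1). Over all 16 libraries the totals ran from 131430 to 1010888. How many cells went into each library is not given in the sources used here, so the total is no measure of breaks per cell, and fewer cells with a break cannot be told apart from fewer breaks in each cell. Everything below concerns where the ends lay. Hmgb1 itself held few ends, 24 and 43 without irradiation and 37 and 21 at 3 Gy (log2 change -0.11, SE 0.370, edgeR adjusted p = 0.978). Ends in the gene do not measure its transcript, so they do not check the silencing.

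1 library stood apart. At 3 Gy, replicate 2 of the silenced line placed 21.6% of its ends in the most gene-rich megabases and 23.1% in the most gene-poor ones, the lowest and the highest of the 16 libraries (dense clusters left out). Its partner at 3 Gy had 25.8% and 19.6%. Changes are therefore given for each pair where they can be, and the main counts of genes and windows also without that library.

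Across the genome, gene-poor sequence held a larger share of the ends at 3 Gy and gene-rich sequence a smaller one, in both pairs. Of 2578 windows of 1 Mb with enough ends to test, 71 rose (2.75%) and 86 fell (3.34%) at a Benjamini-Hochberg adjusted p under 0.05 in edgeR's quasi-likelihood fit with the replicate number as a block. Without the block no window passed, although 276 (10.7%) were higher and 236 (9.15%) lower at an unadjusted p under 0.05. Leaving out the outlying library left 1 window higher and 0 lower, leaving out its partner gave 115 higher and 329 lower, and leaving out either unirradiated library gave 0 and 0. In both pairs, 907 windows (35.2%) were higher and 904 (35.1%) were lower.

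Windows were then grouped by how many protein-coding genes start in them. The 615 windows with 0 or 1 start had a median log2 change of 0.24, and 49 of them rose while 1 fell. Medians then stepped down through 0.10 in the 546 windows with 2 to 4 starts, -0.05 in the 432 with 5 to 7, and -0.15 in the 476 with 8 to 13. The 509 windows with 14 or more starts had a median of -0.29, with 4 rising and 62 falling. In both of these classes no window passed without the block, without the outlying library or without either unirradiated library. All 5 medians kept their sign under each of 16 alternative settings, where the gene-poor median ran from 0.15 to 0.33 and the gene-rich one from -0.43 to -0.16.

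**Figure D1:**
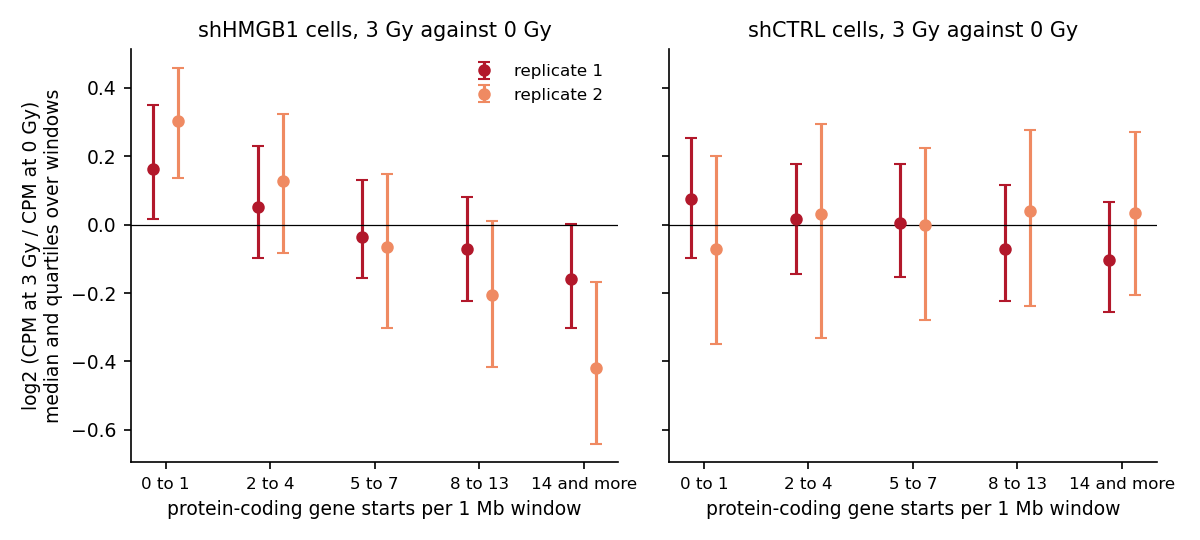
Log2 change in scaled ends between 0 and 3 Gy for 1 Mb windows grouped by protein-coding gene starts, drawn for each replicate number of shHMGB1 and shCTRL cells as the median and the quartiles. In shHMGB1 cells both replicate numbers step down from the gene-poor class (medians 0.16 and 0.30) to the gene-rich class (-0.16 and -0.42). The shCTRL medians stay between -0.10 and 0.07 and step down in replicate 1. Replicate 2 of shCTRL includes a 3 Gy library of only 131430 ends.

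The order held in each pair, with a steeper slope in replicate 2. In replicate 1 the class medians ran from 0.16 to -0.16, and in replicate 2 from 0.30 to -0.42. In the gene-poor class 438 of 615 windows (71.2%) were higher in both pairs and 39 (6.34%) were lower in both, whereas in the gene-rich class 45 of 509 (8.84%) were higher and 348 (68.4%) lower. In shCTRL cells the same medians fell from 0.07 to -0.10 in replicate 1, the direction seen in silenced cells. In replicate 2 they ran from -0.07 to 0.03, so the control pairs went opposite ways. That second pair includes the smallest of the 16 libraries, shCTRL at 3 Gy with 131430 ends. No window passed a test of the difference in response between the lines (edgeR, 0 of 2578, and 124 higher, 4.81%, and 143 lower, 5.55%, at an unadjusted p under 0.05).

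As a share of all ends outside dense clusters, the gene-rich class took 28.6% and 27.6% without irradiation and 25.8% and 21.6% at 3 Gy. Both irradiated libraries lay below both unirradiated ones. In the gene-poor class the shares were 17.3% and 17.8% without irradiation, against 19.6% and 23.1% at 3 Gy. The silenced cells at 5 Gy gave 25.4% and 24.5% in the gene-rich class, and at 10 Gy 26.5% and 26.2%, so every irradiated library of this line lay below its unirradiated ones. Replicate 1 at 3 Gy lay above both libraries at 5 Gy and below both at 10 Gy. After scaling to the size of the library (CPM), a median gene-rich window of silenced cells held 477 and 475 CPM without irradiation. At 3 Gy it held 429 and 385. The gene-rich share of shCTRL cells was 27.5% and 29.7% without irradiation and 25.9% and 30.3% at 3 Gy. At 5 Gy it was 27.2% and 29.1%, and at 10 Gy 26.0% and 27.5%. Every irradiated shCTRL library of replicate 1 thus also lay below its unirradiated one, whereas replicate 2 at 3 Gy lay above its own.

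**Figure D2:**
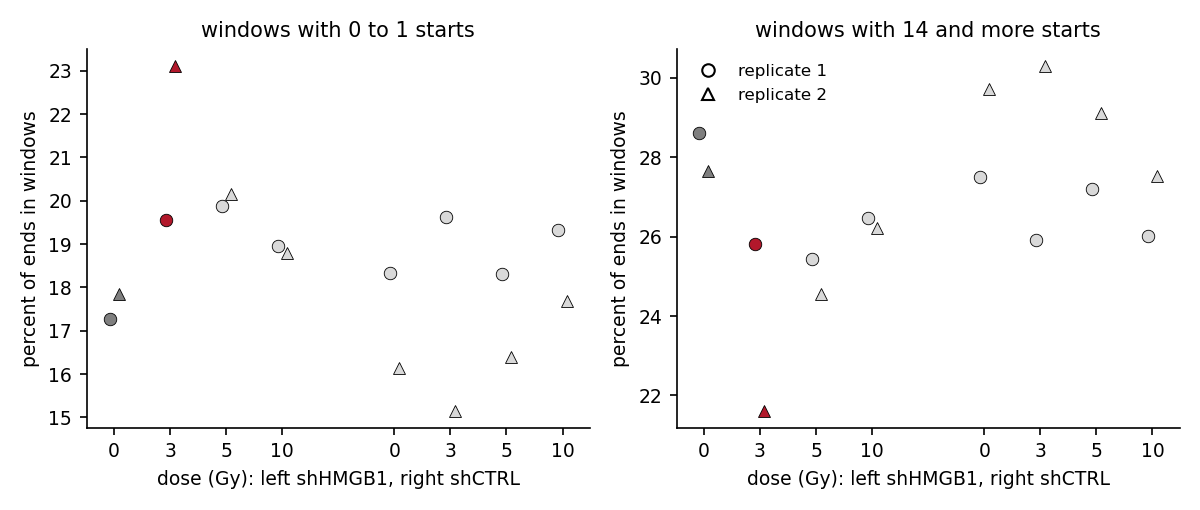
Percent of each library's ends (dense clusters left out) that fell in 1 Mb windows with 14 or more protein-coding starts and in windows with 0 or 1 start, for all 16 libraries by dose. In shHMGB1 cells the gene-rich share is 28.6% and 27.6% without irradiation and 25.8% and 21.6% at 3 Gy, where replicate 2 is the lowest point of the panel.

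Named windows show the scale of these changes. The window on chromosome 1 from 146000001 to 147000000 (mm10, as are all coordinates here) contains 1 gene start and most of Brinp3, a gene best known from neurons. It held 143 and 193 ends without irradiation and 258 and 292 at 3 Gy, a rise of 0.63 on the log2 scale (SE 0.147, adjusted p = 0.016). Cntnap5a, a long gene of the neurexin superfamily, lies in the window on chromosome 1 from 115000001, where 139 and 178 ends became 273 and 248 (log2 change 0.63, adjusted p = 0.016). Both windows had ends spread over many positions, with at most 3.70% in the densest 500 bases.

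Another pair of windows that rose has no protein-coding start at all. On chromosome 5 from 60000001, the 4 libraries held 96, 140, 181 and 224 ends in the order 0 Gy then 3 Gy, and on chromosome 17 from 77000001 they held 135, 194, 253 and 273. Their log2 changes were 0.70 and 0.60. The window with the smallest p of those that rose was different in kind: on chromosome 13 from 56000001 it went from 189 and 285 ends to 439 and 371 (log2 change 0.70, adjusted p = 0.012), but 56.3% of its ends lay in 500 bases inside Trpc7, described further on. Counted once per position, that window changed by 0.31 (adjusted p = 0.147).

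The 5 windows with the smallest p among those that fell contain between 7 and 27 protein-coding starts. On chromosome 7 from 79000001, with Abhd2, a lipase gene, and Polg, the mitochondrial DNA polymerase, 267 and 297 ends became 210 and 163 (log2 change -0.70, adjusted p = 0.012). In the window on chromosome 8 from 94000001, which holds the nuclear pore gene Nup93, 285 and 379 ends became 245 and 190 (-0.69). A window on chromosome 8 from 121000001 carries Slc7a5, the large neutral amino acid transporter, and went from 315 and 365 ends to 239 and 208 (-0.70). On chromosome 4 from 140000001 the counts were 378, 447, 319 and 214 (-0.74), and on chromosome 17 from 86000001, with Epas1, a hypoxia-inducible factor, they were 238, 405, 183 and 240 (-0.66). Raw counts of the irradiated replicate 2 were below both unirradiated libraries in the first 4 of these 5 windows.

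Whole chromosomes can be set beside their gene content, as a description. All shares in this paragraph leave out dense clusters. The largest of those, on chromosome 2, held 6.18% and 6.87% of all ends without irradiation and 9.03% and 9.97% at 3 Gy. Directions below are thus for ends outside clusters only. The 8 chromosomes whose share of ends was higher in both pairs (1, 3, 6, 12, 13, 14, 18 and X) have between 5.5 and 7.56 protein-coding starts per tested megabase. The 9 autosomes that were lower in both (2, 4, 5, 7, 8, 9, 11, 17 and 19) have between 8.17 and 14.1, and the 3 that went opposite ways in the pairs (10, 15 and 16) between 6.90 and 7.97. Chromosome Y, with 3 tested windows, was also lower in both. Chromosome 11 took 5.80% and 5.74% of the ends without irradiation and 5.45% and 4.95% at 3 Gy, and chromosome X went from 3.04% and 3.30% to 3.45% and 3.72%. In shCTRL cells 4 of the 8 were also higher in both pairs (1, 12, 14 and 18) and 3 of the 9 lower (9, 17 and 19). With 2 pairs the smallest exact permutation p for any of these shares is 0.5.

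Among single genes, 7 of 12832 tested rose (0.0546%) and 4 fell (0.0312%) at an adjusted p under 0.05. At an unadjusted p under 0.05 the counts were 565 (4.4%) and 468 (3.65%). Without the replicate block 1 gene passed, Slc38a2, which fell (0.00779%). Without the outlying library 4 genes rose and 0 fell, without its partner 2 rose and 15 fell, without unirradiated replicate 1 Ccn5 alone passed, as a fall, and without unirradiated replicate 2 the counts were 3 and 1. The genes that rose and those that fell differed in how their ends were arranged, so they are described apart.

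In 5 of the 7 genes that rose, most ends sat on 1 base. Trpc7 encodes a calcium-permeable cation channel of the canonical TRP family and spans 56773113 to 56895993 on chromosome 13. It held 78 and 170 ends without irradiation and 301 and 227 at 3 Gy, a log2 change of 1.30 (SE 0.235, adjusted p = 0.000395). Of these ends, 71, 157, 278 and 211 lay at the single intronic position 56890341, and only 7, 13, 23 and 16 lay elsewhere in the gene. That position was also the gene's highest in all 16 libraries.

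Shb, an adaptor protein that carries an SH2 domain, showed the same arrangement on chromosome 4. Its counts were 201 and 366 without irradiation and 648 and 452 at 3 Gy (log2 change 1.12, SE 0.223, adjusted p = 0.00223). The intronic base 45507204 took 157, 312, 584 and 426 of them. Away from that base Shb held 44, 54, 64 and 26 ends, so the irradiated libraries lay on both sides of the unirradiated ones.

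Btd, which encodes biotinidase, the enzyme that recycles biotin, went from 39 and 117 ends to 171 and 129 (log2 change 1.16, SE 0.254, adjusted p = 0.0154). Its intronic base 31662389 on chromosome 14 held 31, 109, 165 and 124 of these. Hacl1 overlaps Btd, and reads without strand cannot be divided between them, but the base itself lies in Btd alone. 5430405H02Rik went from 52 and 98 to 156 and 126 ends (log2 change 1.11, adjusted p = 0.0273), of which 44, 85, 147 and 124 sat at base 156859461 of chromosome 2. Tgif2 and 4930518I15Rik overlap that gene but not the base. Gm28557 went from 11 and 26 to 55 and 43 (log2 change 1.64, adjusted p = 0.0285), with 9, 19, 51 and 32 at base 67107863 of chromosome 13, inside an intron that the zinc finger gene Rslcan18 also covers.

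These 5 genes were picked out because they were high in the 3 Gy libraries, so their other levels are a description. Their single bases held ends in every dose and both lines. After TMM scaling, Shb stood at 792 and 697 CPM at 3 Gy in silenced cells, against 284 and 403 without irradiation, 346 and 310 at 5 Gy and 277 and 287 at 10 Gy, and at 261 to 502 in the 8 shCTRL libraries. Trpc7, Btd and 5430405H02Rik were likewise highest in the 2 silenced libraries at 3 Gy. Gm28557 was not: it stood at 67.2 and 66.3 CPM there and at 68.0 and 58.1 in shCTRL cells at 5 Gy. When each position was counted once per library, the log2 changes of Shb, Btd and 5430405H02Rik turned to -0.34, -0.55 and -0.39. Trpc7 (1.00) and Gm28557 (0.80) kept their direction without passing.

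**Figure D3:**
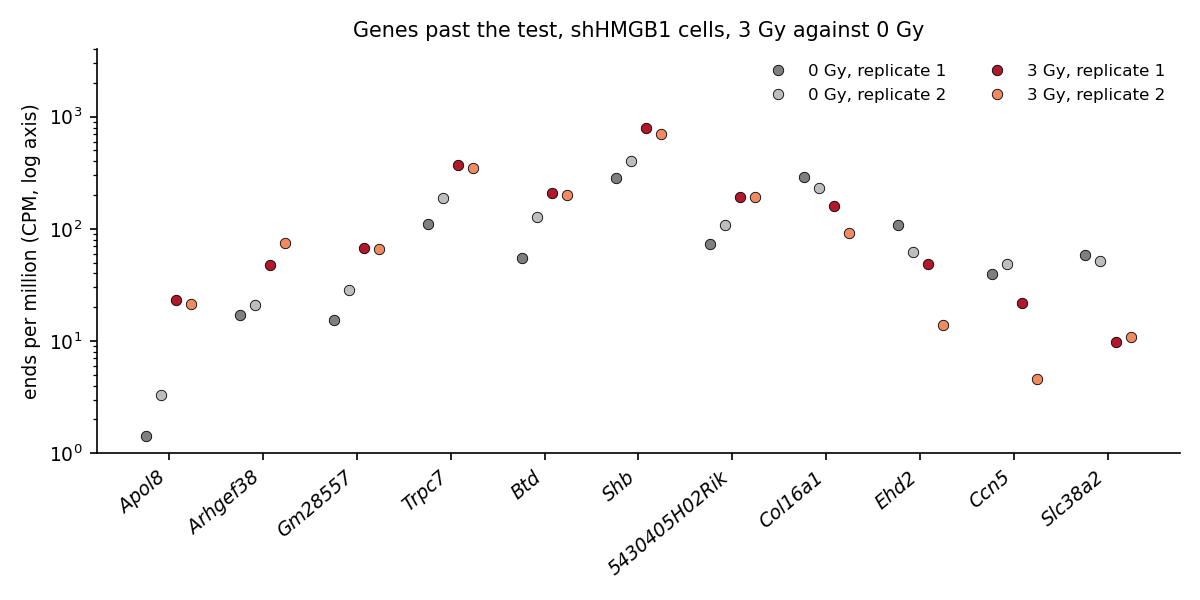
Scaled ends (CPM) in the 11 genes that passed the test, for each of the 4 libraries on a log axis. Btd runs from 55.1 and 129 CPM without irradiation to 209 and 199 at 3 Gy, and Ccn5 from 39.5 and 48.5 to 22.0 and 4.62. In unscaled counts Slc38a2 runs from 41 and 47 ends to 8 and 7, and from 30 and 37 distinct positions to 7 and 5.

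The other two genes that rose had scattered ends. Arhgef38, a guanine nucleotide exchange factor gene of 123 kb on chromosome 3, held 12 and 19 ends without irradiation and 39 and 49 at 3 Gy (log2 change 1.67, SE 0.403, adjusted p = 0.0401). They fell on 10, 18, 28 and 41 different bases, and only 5.04% lay in the densest 500 bases. Apol8, an apolipoprotein L family member, had 1 and 3 ends without irradiation and 19 and 14 at 3 Gy (log2 change 3.09, SE 0.747, adjusted p = 0.0401), at 1, 3, 14 and 9 positions. The irradiated counts lay above the unirradiated ones in both genes, an order that passing the test favours. In shCTRL cells the fitted change was -0.02 for Arhgef38 and 3.16 for Apol8.

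The 4 genes that fell had their ends spread along the gene. Slc38a2 encodes SNAT2, the amino acid transporter that cells induce when amino acids run short. Its 12.3 kb on chromosome 15 (96687392 to 96699730) held 41 and 47 ends without irradiation and 8 and 7 at 3 Gy, a fall of 2.39 on the log2 scale (SE 0.468, adjusted p = 0.00202). Exons make up 71.6% of the gene's length and held 69.9% of its ends. Slc38a2 had the smallest p of the gene test between lines (log2 difference -2.98, SE 0.680, adjusted p = 0.0728). It had 9 and 18 raw ends in unirradiated and 31 and 8 in irradiated shCTRL cells. Those libraries held 485043 and 392139 ends without irradiation and 927413 and 131430 at 3 Gy. Relative to library size, both shCTRL pairs were higher at 3 Gy. In silenced cells the fall of Slc38a2 remained past the threshold without the block (adjusted p = 0.0469).

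Col16a1, the alpha chain of a fibril-associated collagen, had 207 and 209 ends without irradiation and 132 and 60 at 3 Gy (log2 change -1.04, SE 0.241, adjusted p = 0.0273). Its exons are 13.1% of its length and carried 26.0% of its ends. Ccn5, a secreted matricellular protein, went from 28 and 44 to 18 and 3 (log2 change -1.81, adjusted p = 0.0273). Ehd2, an ATPase that stabilises caveolae at the plasma membrane, went from 77 and 56 to 40 and 9 (log2 change -1.46, adjusted p = 0.0285). In these 3 genes replicate 2 at 3 Gy was the lowest of the 4 libraries, and none of the 4 genes that fell passed without that library. All 4 genes that fell kept their direction when each position was counted once, where 3 of the 4 passed.

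Promoters of 6 of these genes are shown, the 3 with a RefSeq entry among those that fell (Slc38a2, Col16a1 and Ehd2) and 3 of the 4 with one among those that rose (Btd, Arhgef38 and Trpc7), to show how far their CG content runs on each side. Each is the 250 bases before the annotated start, from RefSeq (GRCm38.p6), read 5′ to 3′ on the gene's strand, with every CG in capitals.
Slc38a2, chr15:96699729-96699978, minus strand: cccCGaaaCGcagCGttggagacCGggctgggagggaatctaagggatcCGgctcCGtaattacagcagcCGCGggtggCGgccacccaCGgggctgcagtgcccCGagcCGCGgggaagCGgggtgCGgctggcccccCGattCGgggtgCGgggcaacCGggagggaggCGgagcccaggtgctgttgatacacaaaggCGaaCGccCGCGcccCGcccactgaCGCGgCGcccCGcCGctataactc
Col16a1, chr4:130047590-130047839, plus strand: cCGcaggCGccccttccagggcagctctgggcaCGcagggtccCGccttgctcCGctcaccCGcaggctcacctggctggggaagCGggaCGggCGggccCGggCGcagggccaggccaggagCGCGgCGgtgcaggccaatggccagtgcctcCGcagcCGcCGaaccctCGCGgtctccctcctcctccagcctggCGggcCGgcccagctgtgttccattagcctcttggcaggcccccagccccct
Ehd2, chr7:15967536-15967785, minus strand: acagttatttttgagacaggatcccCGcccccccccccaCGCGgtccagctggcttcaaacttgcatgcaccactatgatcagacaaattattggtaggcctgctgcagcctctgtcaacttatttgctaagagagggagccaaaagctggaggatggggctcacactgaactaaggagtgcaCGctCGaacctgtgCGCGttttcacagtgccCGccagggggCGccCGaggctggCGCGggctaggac
Btd, chr14:31640807-31641056, plus strand: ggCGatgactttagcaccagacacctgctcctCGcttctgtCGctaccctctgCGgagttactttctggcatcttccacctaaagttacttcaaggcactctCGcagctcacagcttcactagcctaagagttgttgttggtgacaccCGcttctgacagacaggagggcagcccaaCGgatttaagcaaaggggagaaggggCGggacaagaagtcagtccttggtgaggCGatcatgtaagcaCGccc
Arhgef38, chr3:133234950-133235199, minus strand: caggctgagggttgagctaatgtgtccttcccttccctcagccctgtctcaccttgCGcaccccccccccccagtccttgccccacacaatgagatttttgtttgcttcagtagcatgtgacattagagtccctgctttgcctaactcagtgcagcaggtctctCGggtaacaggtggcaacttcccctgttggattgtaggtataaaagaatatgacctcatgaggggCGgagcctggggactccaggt
Trpc7, chr13:56895790-56896039, minus strand: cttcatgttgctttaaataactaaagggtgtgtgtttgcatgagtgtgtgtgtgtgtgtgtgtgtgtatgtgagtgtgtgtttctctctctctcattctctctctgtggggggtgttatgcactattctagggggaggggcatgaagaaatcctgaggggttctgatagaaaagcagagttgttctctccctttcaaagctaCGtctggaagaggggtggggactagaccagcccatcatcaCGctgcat

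CG reads the same on both strands, and 91.7% of 27025 RefSeq promoter windows of this length hold at least 1, with a median of 6 and quartiles of 2 and 16. Slc38a2 held 30, more than 94.4% of promoters, Col16a1 held 21 and Ehd2 12. On the other side Btd held 10, close to Ehd2, Apol8 4, Arhgef38 3 and Trpc7 2. Few ends fell in these stretches: within 1 kb of the start Slc38a2 had 3, 1, 1 and 0 ends, Col16a1 5, 6, 2 and 0, Btd 0, 1, 0 and 1, Trpc7 0, 2, 0 and 0, and Ehd2 and Arhgef38 none. Most ends of these genes thus lay away from the start, and counts this small cannot show whether the start itself changed.

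Other genes named for their small p did not pass. On the higher side, Dnah7a, a ciliary dynein heavy chain, went from 29 and 38 to 59 and 79 ends (log2 change 1.20, adjusted p = 0.0995). Ndst4, a heparan sulphate sulphotransferase gene of 325 kb, had 44, 91, 113 and 121 (adjusted p = 0.110), and Pcsk2, a prohormone convertase of neuroendocrine cells, had 37, 58, 80 and 92. Fgf13 on chromosome X had 30, 45, 69 and 77, and Rgs7, a regulator of G protein signalling in neurons, had 46, 51, 87 and 91. The adjusted p of Pcsk2, Fgf13 and Rgs7 was 0.145 each. In each of these 5 genes both irradiated counts exceeded both unirradiated ones, an order that a choice by small p in this comparison favours.

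On the lower side, Shkbp1 went from 14 and 11 ends to 1 and 0 (adjusted p = 0.059), Tead3, a Hippo pathway transcription factor, from 37 and 30 to 14 and 4 (adjusted p = 0.139), and Lgals1, which encodes galectin-1, from 45 and 63 to 30 and 12 (adjusted p = 0.158). Serpinh1, the collagen chaperone HSP47, had 71, 65, 52 and 10 ends (adjusted p = 0.145), and Mrc2, a receptor that takes up collagen, had 68, 64, 47 and 13 (adjusted p = 0.162). Rpl4, a ribosomal protein, had 372, 419, 309 and 120 ends (log2 change -0.89, adjusted p = 0.080), but counted once per position its change was 0.04. In all 6 of these genes the irradiated replicate 2 was the lowest of the 4 libraries.

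All tested genes were sorted by their density of ends in the 8 shCTRL libraries, dense clusters left out, and cut into 5 equal groups. A gene that lies inside a dense cluster therefore counts as sparse here. Those libraries are not part of the contrast, although they enter the filter, the scaling and the estimate of spread. In the 2567 genes with the fewest ends per kb, with a median length of 79.0 kb, the median log2 change was 0.31. Of these, 241 (9.39%, against 4.4% of all genes) were higher and 10 (0.39%, against 3.65%) lower at an unadjusted p under 0.05. The filter on low counts favours genes that are high in some group, and its part in this was not tested. Medians in the next groups were 0.20, -0.03 and -0.19. In the 2567 genes with the most ends per kb, with a median length of 15.2 kb, the median was -0.31. Of these, 48 (1.87%) were higher and 244 (9.51%) lower at that p. Without the outlying library the medians of the sparsest and the densest group were 0.13 and -0.14. That densest group took 21.6% and 20.6% of the ends outside dense clusters without irradiation and 20.6% and 13.4% at 3 Gy.

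Within the densest group both exons and introns took smaller shares at 3 Gy, with dense clusters left out. Its exonic share at 3 Gy was 0.982 times the unirradiated one in replicate 1 and 0.571 times in replicate 2, and its intronic share 0.927 and 0.683 times. In the sparsest group the intronic share was 1.06 and 1.23 times the unirradiated one. From 0 to 1 kb after the start of genes in the densest group, the density was 6.004 and 5.63 CPM per kb without irradiation and 5.84 and 3.93 at 3 Gy.

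No member of any of the 17 gene lists, grouped by function, passed the test. Their medians are set beside the median of all genes tested, -0.02 (0.01 in replicate 1 and -0.03 in replicate 2), and their counts beside the share of all genes tested. Of all genes, 4.4% were higher and 3.65% lower at an unadjusted p under 0.05, and 26.6% were higher and 28% lower in both pairs. Without the outlying library 1.95% and 1.92% were higher and lower at that p. Library totals without TMM scaling moved that overall median to -0.22, and list medians moved with it.

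Vomeronasal receptors, the pheromone receptors of the rodent nose, held 0.278 and 0.243 CPM per kb without irradiation and 0.285 and 0.375 at 3 Gy, summed over all 328 genes. The level in replicate 1 was thus nearly the same at both doses. Only 69 of the 328 had enough ends to test, and such a filter favours members that are high in some group, so their median of 0.54 is no measure of the family. Vmn2r60 held 9, 23, 18 and 23 ends. Olfactory receptors held 0.313 and 0.289 CPM per kb without irradiation and 0.358 and 0.443 at 3 Gy, and 10 of 1134 had enough ends to test.

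Very long genes known for common fragile sites, where late-replicating sequence breaks under replication stress, had a median of 0.43 over 20 genes, with 8 (40%, against 4.4% of all genes) higher and 0 lower at an unadjusted p under 0.05. In both pairs 12 (60.0%, against 26.6%) were higher and 0 lower. With the outlying library left out, 0 were past that p in either direction. Cntnap2, a neurexin family adhesion gene of 2245 kb, held 271 and 415 ends without irradiation and 450 and 485 at 3 Gy (log2 change 0.62, adjusted p = 0.384). Macrod2 held 1890, 2372, 2163 and 2296, with 71.9% of them in 500 bases, and its fitted change was 0.22. Neuronal genes had a median of 0.40 over 11. Without the outlying library the neuronal median was 0.07 and that of the long genes 0.31.

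Matrix and fibroblast genes lay on the lower side, with a median of -0.38 over 18 tested of 21. At an unadjusted p under 0.05, 5 (27.8%, against 3.65% of all genes) were lower and 0 higher, and in both pairs 12 (66.7%, against 28%) were lower and 0 higher. When the outlying library was left out, 0 were lower and 1 higher at that p, and the median was -0.13. Col1a1, the main chain of type I collagen, held 444 and 448 ends without irradiation and 413 and 173 at 3 Gy (log2 change -0.58, adjusted p = 0.442). Fn1, fibronectin, held 441, 621, 497 and 211. The list's summed density was 5.02 and 4.56 CPM per kb without irradiation and 4.47 and 2.22 at 3 Gy. Its median was -0.15 in replicate 1 and -0.72 in replicate 2.

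Ribosomal protein genes, short and intensely transcribed, had a median of -0.37 over 48 tested, with 7 (14.6%, against 3.65% of all genes) lower and 0 higher at an unadjusted p under 0.05. The median was -0.18 without the outlying library, with 2 of 59 lower. The pairs differed: the median was 0.08 in replicate 1 and -0.95 in replicate 2. Highly transcribed genes (median -0.19), snoRNA host genes (-0.21) and endoplasmic reticulum chaperones (-0.27) had the same form, positive in replicate 1 at 0.04, 0.32 and 0.16 and negative in replicate 2 at -0.67, -0.80 and -0.88. Without the outlying library these 3 medians were 0.05, 0.09 and 0.06.

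Among the snoRNA hosts, Gas5 held 2699 and 3694 ends without irradiation and 3016 and 1395 at 3 Gy, and Snhg1 held 2074, 3004, 2359 and 1198. Both are noncoding genes whose introns carry small nucleolar RNAs. Malat1, an abundant nuclear RNA, held 2652, 3492, 2478 and 1619. All 3 were lowest in the irradiated replicate 2, and none passed the test.

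HMG and nucleosome-handling genes, a list wider than the family of the silenced gene, had a median of -0.46 over 15 tested of 22. The medians were -0.31 and -0.68 in the 2 replicate numbers. In both pairs 10 (66.7%, against 28% of all genes) were lower and 1 (6.67%, against 26.6%) higher. Leaving out the outlying library brought the median to -0.08. In shCTRL cells the median of the same list was -0.21. Hmga2, an architectural chromatin protein, held 84, 142, 122 and 44 ends, and Ino80, a chromatin remodeller, had a log2 change of -0.64 (adjusted p = 0.606). Genes of double-strand break signalling and repair had a median of 0.10 over 23. In both pairs 5 (21.7%, against 26.6% of all genes) were higher and 7 (30.4%, against 28%) lower. The sign of that median was not stable. It was 0.03 in replicate 1 and -0.10 in replicate 2, -0.09 without TMM scaling and -0.09 without the outlying library. Prkdc, the catalytic subunit of the end-joining kinase, held 81, 115, 90 and 71 ends, and Xrcc5, which encodes Ku80, held 39, 41, 38 and 21. Targets of p53 had a median of -0.23 over 14 and immediate early genes one of -0.02 over 10. Zinc finger Zfp genes had a median of -0.06 over 184.

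Markers of cell types were read in the same way. Mesothelial genes had a median of -0.03 over 6 tested of 13, and blood cell genes one of -0.03 over 4 of 15. Only 3 histone genes of 78 had enough ends to test, with a median of -0.69. Break ends show where DNA was cut and cannot name the cells they came from, so the identity of the line was not checked by these lists.

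**Figure D4:**
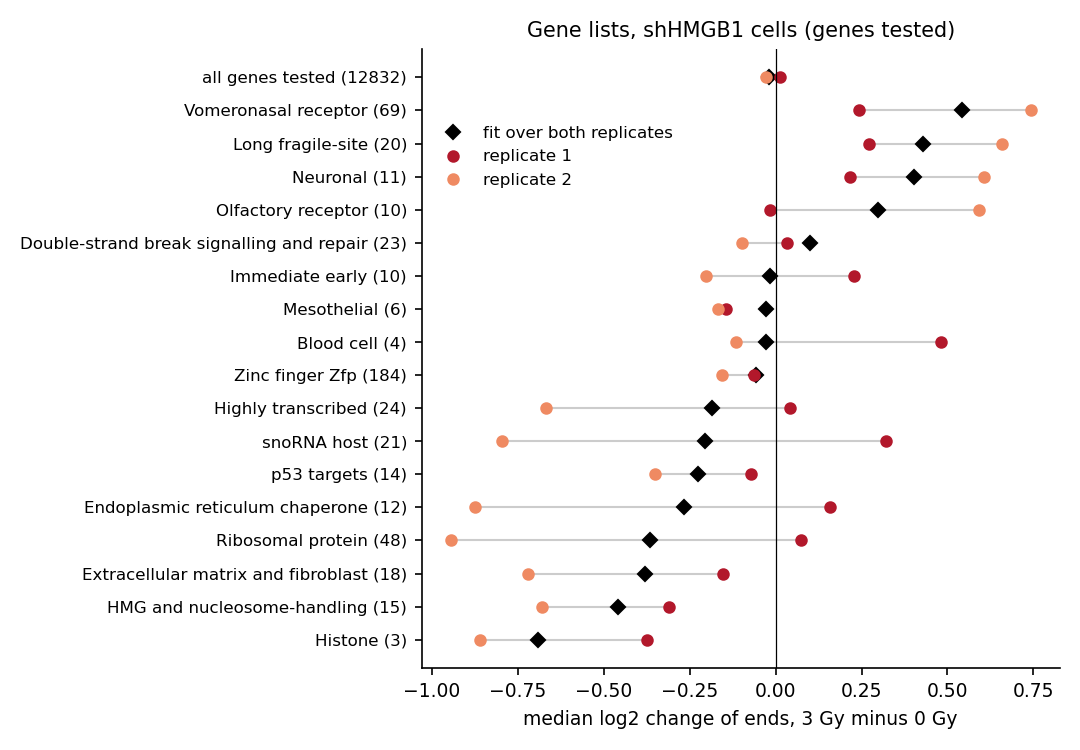
Median log2 change from 0 to 3 Gy in shHMGB1 cells for each gene list, from the fit and for each replicate number alone. Long fragile-site genes (0.27 and 0.66) and the 69 vomeronasal receptors that passed the filter (0.24 and 0.74) lie to the right in both replicate numbers, matrix genes (-0.15 and -0.72) to the left in both, and ribosomal protein genes on both sides (0.08 and -0.95).

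By annotation class, the share of ends within 1 kb of a protein-coding start was higher at 3 Gy, 15.95% and 16.7% against 12.5% and 13.3%, a mean difference of 3.43 percentage points. With dense clusters left out the shares were 4.05% and 3.79% without irradiation and 3.53% and 2.79% at 3 Gy, and the mean difference was -0.76. Counting each position once gave -0.70. Exons took 14.1% and 12.02% without irradiation and 12.6% and 7.30% at 3 Gy, introns 39.7% and 40.4% against 37.3% and 37.2%, and intergenic sequence 33.7% and 34.2% against 34.2% and 38.8%. The mean intergenic difference of 2.56 percentage points became 5.07 with dense clusters left out and 5.35 with each position counted once. For each of these 4 shares the exact permutation test within pairs gave p = 0.5, the smallest possible. No single promoter passed the test over 398 promoters (edgeR, 0 called, with 19 higher, 4.77%, and 8 lower, 2.01%, at an unadjusted p under 0.05; DESeq2, 0 called).

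Dense clusters, stretches where at least 1 library had 1000 or more ends together, numbered 32 and covered 78.5 kb. They took 22.6% and 21.5% of all ends without irradiation and 25.5% and 22.8% at 3 Gy. 7 of them were higher in both pairs and went from 10.5% and 11.6% of all ends to 15.0% and 16.3%, by factors of 1.24 to 1.61 in replicate 1 and 1.26 to 1.48 in replicate 2. Another 20 were lower in both pairs and together went from 10.1% and 8.03% to 8.32% and 5.20%. The remaining 5 went opposite ways in the 2 pairs.

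The largest cluster lies at 98663985 to 98668287 on chromosome 2, over the predicted genes Gm10801 and Gm10800, a place known for satellite-like repeat. It alone held 42763 and 60562 ends without irradiation and 79879 and 74845 at 3 Gy. As a share of the library that is 1.46 and 1.45 times higher, while in shCTRL cells the ratios were 1.08 and 0.735. Clusters near the start of chromosome 9, over Gm10722 (1.45 and 1.44 times) and over Gm10718 and Gm10717 (1.43 and 1.37 times), moved like it. In the gene fit Gm10800 had a log2 change of 0.76 (SE 0.256, adjusted p = 0.337).

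Next in size was the cluster at 39841995 to 39849347 on chromosome 17, over Gm26917, Gm42418 and AY036118, which holds an annotated ribosomal RNA gene. It went from 35053 and 27540 ends to 36234 and 12236, or 0.808 and 0.522 times as a share of the library. The cluster over Snhg1 had ratios of 0.890 and 0.461 and that over Gas5 0.892 and 0.464. In shCTRL cells the ratios were 0.695 and 1.11 for the ribosomal RNA cluster, 0.940 and 1.32 for Snhg1, and 1.04 and 1.62 for Gas5. In silenced cells, clusters over satellite-like sequence were thus higher at 3 Gy by nearly the same factor in both pairs. The clusters over the ribosomal RNA gene and these snoRNA hosts were lower in both silenced pairs, by a larger factor in replicate 2. Because such sequence exists in more copies than the reference holds, the counts cannot be assigned to a locus.

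**Figure D5:**
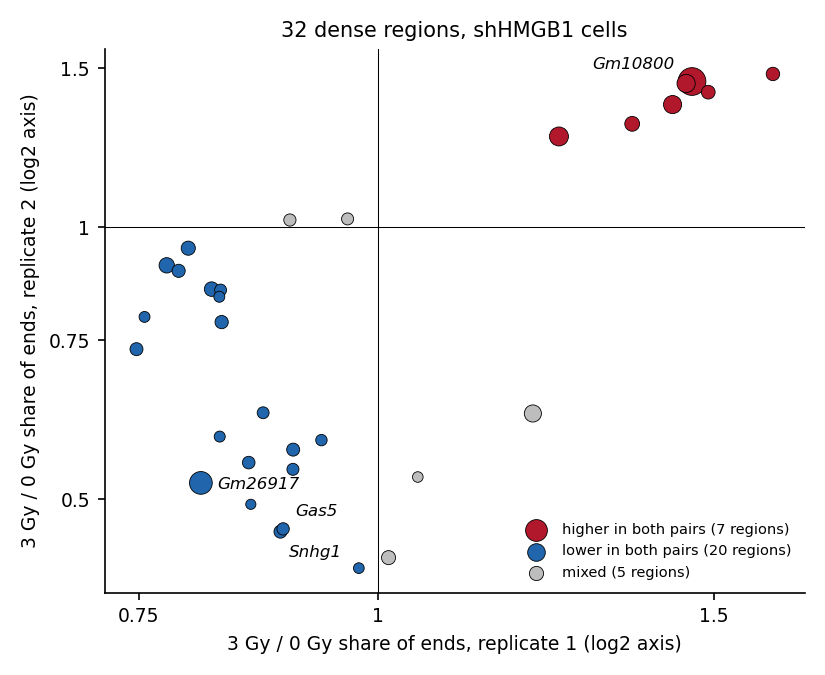
Ratio of each dense cluster's share of ends at 3 Gy to its share at 0 Gy in shHMGB1 cells, replicate 1 against replicate 2, both on log axes. The 7 clusters higher in both pairs sit together (1.24 to 1.61 and 1.26 to 1.48), and the 20 lower in both spread mainly along replicate 2 (0.420 to 0.949).

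Single bases with many ends behaved differently inside and outside these clusters. Bases with at least 100 ends over the 8 shCTRL libraries, a choice that did not use the silenced cells, numbered 2180. Inside dense clusters there were 1603, of which 807 were higher in both pairs and 395 lower, with median ratios of 1.26 and 1.14. Outside them there were 577, of which 66 were higher in both pairs and 321 lower, with median ratios of 0.894 and 0.717. The 5 single bases in Trpc7, Shb, Btd, 5430405H02Rik and Gm28557 thus belong to a minority outside the clusters. In exons outside clusters, 3 such bases were higher in both pairs and 58 lower.

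Small RNA genes were tested as a set of their own, and none of 228 passed (edgeR, with 3 higher, 1.32%, and 5 lower, 2.19%, at an unadjusted p under 0.05). snoRNA genes together took 2.73% and 2.99% of the ends without irradiation and 2.57% and 1.43% at 3 Gy, and annotated ribosomal RNA genes 1.77% and 1.34% against 1.79% and 0.714%.

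Other doses of the silenced line were set against 3 Gy directly, since their own responses share the unirradiated libraries. From 3 to 5 Gy, 0 genes rose and 4 fell (0.0312%), and from 3 to 10 Gy, 0 rose and 10 fell (0.0779%). These contrasts reuse the 3 Gy libraries in which the genes above were called, so a lower value at another dose partly restates that call, and no test is given for those genes. Trpc7 stood at 167 and 210 TMM-scaled CPM at 5 Gy and at 128 and 162 at 10 Gy, against 368 and 350 at 3 Gy and 110 and 187 without irradiation. For 5430405H02Rik the values were 75.9 and 104 at 5 Gy and 65.5 and 96.9 at 10 Gy, against 191 and 194 at 3 Gy and 73.4 and 108 without irradiation. In both genes the libraries at 5 and 10 Gy overlapped the unirradiated ones. Slc38a2 had 32 and 26 ends at 5 Gy and 20 and 28 at 10 Gy, against 8 and 7 at 3 Gy and 41 and 47 without irradiation. Of the 1 Mb windows, 3 fell and 0 rose from 3 to 10 Gy (0.116%), and 2 fell and 0 rose from 3 to 5 Gy (0.0776%).

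Between the lines, no gene, promoter, window or small RNA gene had a response to 3 Gy that differed at an adjusted p under 0.05 (edgeR, with 395 genes higher, 3.08%, and 377 lower, 2.94%, at an unadjusted p under 0.05). The result was 0 again without the block, and without the small shCTRL library at 3 Gy. In shCTRL cells alone, 0 genes passed the comparison of 3 Gy with 0 Gy, with 356 (2.77%) higher and 394 (3.07%) lower at an unadjusted p under 0.05 (edgeR). On simulated counts with the depth of these libraries, the test recovered 74 of 100 genes changed 4-fold and 21 of 100 changed 2-fold, with 6 false calls. Changes of 2-fold or less in single genes were thus mostly not detectable. The changed genes were drawn above a floor of mean ends, so recovery among genes with few ends was not measured. The libraries compared otherwise shared a common mean for each gene, without the shift of the outlying library.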

How the data were processed

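BLISS libraries of mouse AB22 cells were analysed from the deposited tables of break ends, in which the authors list every UMI-collapsed end by position together with the count of ends per cluster, without strand, on mm10. Per the submitters' processing notes the tools were Trimmomatic 0.32, UMI-tools, BWA 0.7.5-r404, SAMtools and bedtools. Positions were made 1-based, and the ends of each library were counted in genes (GENCODE M21, protein-coding and long noncoding), in windows of 1 kb on each side of protein-coding starts, in 1 Mb windows and in small RNA genes.

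Counts of all 16 libraries entered edgeR 4.0.16 (R 4.3.3, limma 3.58.1): quasi-likelihood fit, TMM scaling on main-chromosome totals, filterByExpr, 8 group means, replicate number as a block within each line, Benjamini-Hochberg adjusted p under 0.05 over all features of a kind. The block was kept because the comparison is defined within replicate number; values without it stand beside the calls. Log2 changes and their SE come from this fit, changes per replicate number from scaled counts (CPM) plus 0.5. Shares were compared by an exact permutation within pairs, whose smallest p is 0.5. DESeq2 1.42.0, other scalings, filters, counting rules and left-out libraries were alternatives. The edgeR step was tested on simulated data.

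The members and gene lists were chosen with earlier results of these data known. Named genes were the smallest p in each direction without predicted genes, Hmgb1, and the members of each list with the most ends; the text names part of these. 5430405H02Rik and Gm28557, the gene-density classes, the groups of genes by shCTRL density, the single-base counts and the promoters shown were chosen after values were seen. A planned grouping of windows by GC content was not run, as no genome sequence was used here, and a planned split of promoters by CpG was void because 14264 of 21910 protein-coding genes (65.1%) matched a RefSeq promoter. Python 3.11.15, numpy 2.4.6, pandas 2.3.3 and matplotlib 3.10.9 did the rest. The number of ends limits precision, and p-values measure only the spread between these libraries.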

Additional observations from a re-analysis of the deposited data

Results flagged for a closer look

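The items in this paragraph were singled out because the 2 pairs of shHMGB1 cells went one way from 0 to 3 Gy and the 2 pairs of shCTRL cells the other, and the difference between the lines was not tested. For introns the mean change in silenced cells was 3.10 percentage points below that in control cells (a difference of -3.10). That opposition depended on the counting: with each position counted once the intron share of control cells fell by 0.33 and 0.61 percentage points, and with at most 3 ends per position by 0.14 and 1.12, the same way as in silenced cells. For snoRNA genes the difference in the mean change of their share of ends was -1.45 percentage points, for scaRNA genes -0.0494, and for the mitochondrial genome -0.0809. Chromosome 13 had a difference of 0.117 percentage points with dense clusters left out. The dense cluster over Gas5 had a difference of -1.01 on the log2 scale, and a cluster without a gene on chromosome 18, from 10051132, had one of -0.51. The shCTRL library at 3 Gy with the fewest ends (131430) enters each of these.

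Unplaced scaffolds, which no comparison of the report uses, held 0.516% and 0.511% of ends without irradiation and 0.642% and 0.670% at 3 Gy in silenced cells, a mean difference of 0.143 percentage points. In shCTRL cells the values were 0.461% and 0.411% against 0.504% and 0.480%.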

How the results depend on the processing

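Calls of single genes and windows depended on the setting, while the order of windows by gene density did not. The labels do not say what a replicate number marks. Same-numbered libraries of the 12 pairs of groups had weak positive correlations of their deviations, between 0.053 and 0.143. The mitochondrial share of ends was higher in replicate 1 than in replicate 2 at every dose of both lines. Without irradiation it was 0.297% and 0.261% in shHMGB1 cells and 0.369% and 0.217% in shCTRL cells. Whether the number marks a shared experiment was not tested. Without the replicate block 1 gene, 0 windows and 0 promoters passed.

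Gene calls were 11 in the fit reported. They were 19 with DESeq2 (17 higher, 2 lower), 3 without a filter on low counts, 6 with each position counted once, 3 with at most 3 ends per position, 24 from the 8 shHMGB1 libraries alone, 1 from the 4 libraries alone and 0 after thinning to 131430 ends. Leaving out 1 of the 4 libraries gave 1 to 17. Without TMM 1 gene was higher and 12 lower, against 7 and 4. Window calls were 157, and became 433 with each position counted once (sharing 65 of 71 higher and 84 of 86 lower windows), 270 with at most 3 ends per position, 311 from 8 libraries, 63 from 4 libraries, 0 after thinning and 1 with 100 kb windows. Leaving out 1 library gave 0 to 444. DESeq2 called 10 windows higher and 97 lower, and library totals without TMM 54 and 94. Promoter calls were 0, and 2 with DESeq2 size factors, 1 with at most 3 ends per position, 20 from 8 libraries, 11 from 4 libraries, 8 on autosomes and 5 with 2.5 kb windows. The fits on 4 libraries and on thinned counts have fewer libraries or ends, and for the other settings the cause was not tested.

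The change in the share near starts (3.43 percentage points) reversed to -0.760 without dense clusters, to -0.703 with positions counted once and to -0.630 with no position counted over 3 times, and the cause was not tested. The share in dense clusters (2.08) reversed to -0.126 and -0.305 under the other 2 of these settings. Leaving out 1 replicate number, the log2 ratio of totals ran from -0.23 to 0.35. With positions counted once and with at most 3 ends per position, in that order, the log2 changes reversed to -0.34 and -0.24 for Shb, -0.55 and -0.24 for Btd, -0.39 and -0.49 for 5430405H02Rik, 0.0089 and 0.078 for Gas5, and 0.14 and 0.086 for Snhg1, which also gave 0.19 without dense clusters. Rpl4 gave 0.041 with positions counted once. Leaving out 1 library moved Rpl13a between -0.90 and 0.18, Hmga2 between -1.11 and 0.20, Macrod2 between -0.033 and 0.45 and Hmgb1 between -0.61 and 0.46, and Hmgb1 gave 0.85 after thinning. Of 727 values for 46 genes, 599 kept direction and side of the threshold, 90 lost the call, 19 gained one and 19 reversed.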
